A study of Mus musculus with 9 samples.

Results

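Splicing, nuclear speckle and mRNA export genes were read in laser-captured choroid plexus of old mice with and without apolipoprotein E (ApoE), a lipid-carrying protein. The choroid plexus is a folded tissue in the ventricles of the brain, and its epithelial cells make cerebrospinal fluid. The members were 34 genes chosen by name and with earlier results of this comparison in view: SR proteins, speckle scaffolds, LUC7-like proteins, CLK and related kinases, the THO complex, helicases, RNA-binding regulators and the G3BP pair. A member was read by every probe set (a group of short probes summarised to 1 signal) that the platform annotation assigned to that gene symbol alone. This gave 146 of the array's 45101 probe sets, for 33 of the 18194 genes read that way. The annotation table used here held no such probe set for Srsf7. Of the 146, 123 had a present call (signal judged above background) on 4 or more of the 9 arrays and were tested, among 21478 tested probe sets in all. All 33 genes had a tested probe set, and 20 of the 23 probe sets left out were called present on no array.

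The apoE-/- group held 4 arrays and the wild-type group 5, with 1 choroid plexus sample per array. Both genotypes were C57BL males, 78 weeks old, and fed the same normal chow. The tissue was cut by laser capture from frozen nervous system tissue. The labels do not say how many animals stand behind a sample, how the apoE-/- allele was made, or whether the genotypes were littermates, so a p-value here covers nothing but the variation among these samples, and that variation may be technical. Precision is limited by the number of arrays. Apoe was called absent on all 4 apoE-/- arrays and present on all 5 wild-type arrays, a fall of at least 956-fold (adjusted p = 5.25e-11 by limma).

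The deposited values are signal intensities that had been scaled on each array, and 44.0% to 49.1% of probe sets were called present per array. Of 12 choroid plexus epithelial markers 11 were tested, and their summed signal was 157383 to 193349 on apoE-/- arrays and 150429 to 186477 on wild-type arrays, so both groups carried the tissue's defining transcripts. In tissue of mixed cells, fewer cells of a type and less RNA per cell cannot be told apart.

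Most messenger RNAs are cut out of longer transcripts by the spliceosome, whose choice of exons is steered by SR proteins and other RNA-binding factors. SR proteins carry stretches of alternating arginine and serine that kinases such as CLK1 phosphorylate, and the proteins are stored and released from nuclear speckles, bodies held together by the scaffolds SON and SRRM2. The THO complex loads export factors onto the finished messenger RNA as it leaves the gene. Many splicing factor genes make several transcripts, some with retained introns or early stop codons, so probe sets of the same gene can read different RNAs.

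Single probe sets of 8 members were lower in apoE-/- choroid plexus, and no probe set of any member was higher past the threshold by limma. At an unadjusted p under 0.05, 4 of the 123 tested member probe sets were higher and 32 lower, or 3.25% and 26%, against 7.23% and 9.3% of all tested probe sets, and nothing is read from this because the choice of members used the same contrast. The genes were Thoc2, Srrm2, Rbm47, G3bp2, Luc7l2, Rbm39, Rbm25 and Prpf4b, with 11 probe sets between them, of which 5 were at least 2-fold lower. Every one of the 8 also had a tested probe set that did not pass, and in 6 of the 8 the brightest probe set of the gene was among those. The brightest has the highest mean log2 signal over all 9 arrays, so low apoE-/- values count against a probe set. Over the array, 1.92% of tested probe sets were lower and 0.67% higher (limma, Benjamini-Hochberg adjusted p under 0.05), and among the members 11 of 123, or 8.94%, were lower. The members were chosen with values of this same contrast known, so their share is a description and their differences carry no test here.

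The member median log2 difference, apoE-/- minus wild-type, was -0.09, against 0.0014 over all tested probe sets. Below 0 were 73 of the 123 and above 0 were 50, and the range was from -2.55 to 0.41. The groups did not overlap in 15 member probe sets, all lower in apoE-/-, which is 12.2% against 4.17% of all tested probe sets for that direction. In the other direction the share was 0 of 123 for members and 2.72% for all. Of the 123, 13 were called present on fewer than 9 arrays, 11 of them on a smaller share of apoE-/- than of wild-type arrays. Probe sets like these can pass the filter through the wild-type group alone, so the counts over tested probe sets are tilted towards lower values for them.

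**Figure D1:**
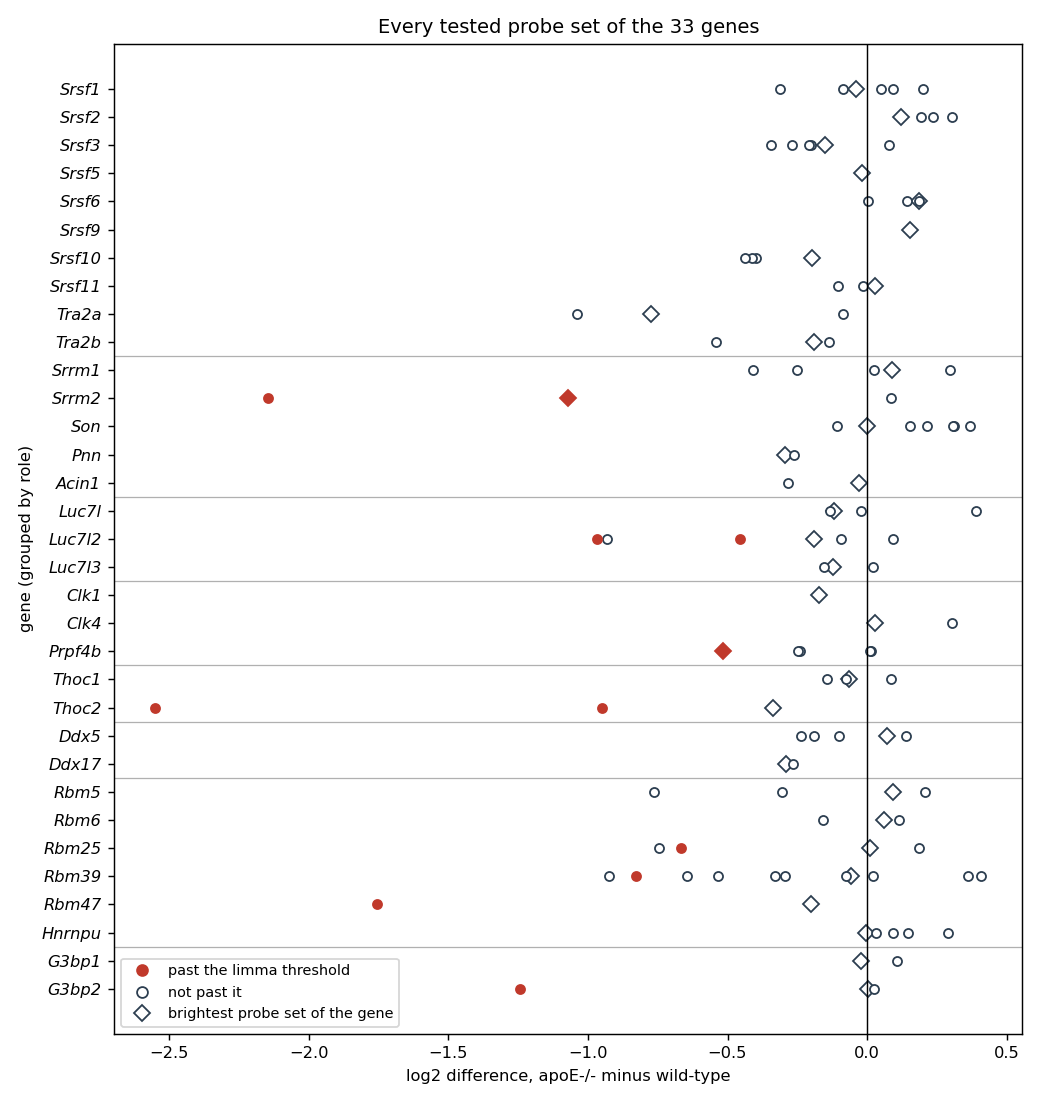
Each symbol is 1 tested probe set, placed by its log2 difference (apoE-/- minus wild-type, x axis) in the row of its gene, with genes grouped by role; filled symbols passed the limma threshold and diamonds mark the brightest probe set of each gene. All 11 filled symbols lie left of 0, and in the rows of Rbm47, G3bp2, Luc7l2, Rbm39, Rbm25 and Thoc2 the diamond is open and lies nearer to 0.

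Thoc2, a large subunit of the THO complex on the X chromosome, was among the members with the lowest values. Its probe set 1438736_at had a deposited signal of 72.2, 74.9, 99.9 and 18.3 in apoE-/- replicates 1 to 4, against 284, 249, 317, 375 and 390 in wild-type replicates 1 to 5. The groups were far apart, and the probe set was called absent or marginal on every apoE-/- array and present on every wild-type array. The log2 difference was -2.55 ± 0.37 (SE), at least 5.85-fold lower in apoE-/-. This fold is printed as a bound, because the apoE-/- signal was not measured above background there. No apoE-/- value needed raising to its array's lowest present signal, so the bound equals the plain fold and carries its error. A second probe set, 1444004_at, read 136, 197, 92.3 and 74.1 in apoE-/- against 226, 226, 209, 198 and 225 in wild-type. Here apoE-/- replicate 2 came within 1 unit of the lowest wild-type array, and the difference was -0.95 ± 0.24 (SE). The brightest probe set of Thoc2 read -0.34 and did not pass. Thoc1, another subunit of the complex, had 4 tested probe sets between -0.14 and 0.09, none of which passed.

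Srrm2 and Son, the scaffolds of nuclear speckles, differed in what their probe sets showed. Srrm2 was read by 3 tested probe sets. By 1437638_at it read 130, 90.7, 58.3 and 18.7 in apoE-/- replicates 1 to 4 and 343, 240, 204, 355 and 172 in wild-type replicates 1 to 5, with 0 of 4 against 5 of 5 arrays called present. It was at least 4.42-fold lower in apoE-/-, a bound that again equals the plain fold. The brightest probe set of the gene, 1438688_at, read 1438, 1868, 1029 and 668 in apoE-/- against 3119, 2356, 2274, 2412 and 2308 in wild-type, a log2 difference of -1.07 ± 0.23 (SE) with no overlap. The third, 1427902_at, read 0.08. All 7 tested probe sets of Son lay between -0.11 and 0.37 and 6 of them were above 0, with none past the threshold.

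The other scaffold and SR-related members did not pass. Srrm1, a splicing coactivator, spanned -0.41 to 0.30 over 5 probe sets. Acin1, which joins the exon junction complex to the splicing machinery, read -0.03 and -0.28. Pnn, found both in speckles and at cell junctions, read 1171, 1132, 1081 and 1231 in apoE-/- by 1423324_at, against 1394, 1333, 1653, 1408 and 1348 in wild-type. That difference of -0.29 ± 0.10 (SE) was without overlap but short of the threshold, and the second probe set of Pnn read -0.26.

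None of the 35 tested probe sets of the 10 SR and Tra2 members passed in either direction, and their median log2 difference was -0.09 (limma, with 8 lower and 1 higher at an unadjusted p under 0.05, or 22.9% and 2.86%, against 9.3% and 7.23% of all tested probe sets). Srsf2 and Srsf6 read above 0 by all 4 of their tested probe sets each, up to 0.30 and 0.19. Srsf10, a splicing repressor under stress, read below 0 by all 4 of its own. Its probe set 1449121_at had 1679, 1668, 1163 and 1910 in apoE-/- and 1594, 2226, 2110, 2398 and 2231 in wild-type, so wild-type replicate 1 lay below 3 apoE-/- arrays and the groups overlapped. Its log2 differences ran from -0.44 to -0.20.

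Among these members Tra2a, an activator that binds purine-rich exon sequences, had the lowest values. By its brightest probe set, 1454725_at, the signal was 939, 1248, 1024 and 2148 in apoE-/- against 1510, 3034, 2032, 2251 and 2337 in wild-type. Replicate 4 of the apoE-/- group lay among the wild-type arrays, and the difference was -0.78 ± 0.22 (SE). Its dimmer probe sets read -0.09 and -1.04, and Tra2b read -0.54 to -0.14.

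Srsf1, the founding member of the family, spanned -0.31 to 0.20 over 6 probe sets. The lowest of them, 1430982_at, had 1959, 1824, 1647 and 2425 in apoE-/- and 2232, 2501, 2668, 2328 and 2511 in wild-type, with overlap through apoE-/- replicate 4. Srsf3 read -0.34 to 0.08 over 6 probe sets. By 1454993_a_at it had 2084, 2104, 1963 and 2578 in apoE-/- and 2370, 2970, 2328, 2920 and 2656 in wild-type, again with apoE-/- replicate 4 inside the wild-type range. Srsf5 (-0.02), Srsf9 (0.15) and Srsf11 (-0.10 to 0.03) stayed close to 0.

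The LUC7-like proteins bind the U1 particle, which recognises the start of an intron. Only Luc7l2 of the 3 had lower probe sets, 2 of 6 tested. Probe set 1436767_at read 298, 316, 236 and 131 in apoE-/- replicates 1 to 4 and 514, 478, 304, 478 and 463 in wild-type replicates 1 to 5, with a log2 difference of -0.97 ± 0.23 (SE). The groups overlapped in these deposited signals, where apoE-/- replicate 2 at 316 exceeded wild-type replicate 3 at 304, and just separated after normalization. The second, 1436165_at, read 1372, 1422, 1224 and 1246 in apoE-/- against 1633, 1969, 1581, 1975 and 1993 in wild-type, a difference of -0.46 ± 0.10 (SE) with no overlap. A further probe set, 1436766_at, annotated to the same database sequence as 1436767_at, read -0.93 without passing, and the brightest read -0.19. Luc7l ranged from -0.13 to 0.39 and Luc7l3 from -0.15 to 0.02.

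Of the kinases, Prpf4b, which phosphorylates spliceosome components, had 1 of 5 probe sets lower. Its brightest, 1455696_a_at, read 2385, 1975, 1960 and 2445 in apoE-/- and 3870, 3040, 2869, 3388 and 2724 in wild-type, a log2 difference of -0.51 ± 0.11 (SE). No array of one group reached the other. The remaining 4 probe sets of Prpf4b read -0.25 to 0.01. Clk1 (-0.17) and Clk4 (0.03 and 0.30), kinases that phosphorylate SR proteins, did not pass.

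Neither DEAD-box helicase had a probe set past the threshold by limma. At an unadjusted p under 0.05, 2 of 7 were lower and 0 higher, or 28.6% and 0%, against 9.3% and 7.23% of all tested probe sets. Both tested probe sets of Ddx17 read alike, at -0.29 and -0.27. By the brighter, 1437773_x_at, the signal was 10111, 8961, 8772 and 11013 in apoE-/- and 13149, 12206, 11153, 12252 and 10892 in wild-type, and in these deposited signals the groups overlapped through apoE-/- replicate 4 and wild-type replicate 5. They also overlapped after normalization, where wild-type replicate 3 was the lowest of its group. By the dimmer, 1452155_a_at, the groups did not overlap, at -0.27 ± 0.08 (SE), though it did not pass. Ddx5, a close relative of Ddx17, spanned -0.24 to 0.14 over 5 probe sets.

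Among the 11 lower probe sets, that of Rbm47 had the largest difference relative to its SE. This RNA-binding protein is a partner of the enzyme that edits apolipoprotein B messenger RNA, and it also takes part in splicing. Its probe set 1423411_at read 645, 647, 475 and 493 in apoE-/- against 1755, 1593, 2256, 2251 and 1637 in wild-type. Every apoE-/- array was far below every wild-type array, and the log2 difference was -1.75 ± 0.15 (SE), 3.37-fold lower in apoE-/-. Its brightest probe set, however, read -0.20.

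Rbm39 and Rbm25 are splicing regulators of the arginine-serine kind. Rbm39 was read by 11 tested probe sets from -0.92 to 0.41, of which 8 were below 0 and 1 passed. That one, 1446147_at, had 131, 155, 102 and 119 in apoE-/- and 202, 236, 192, 217 and 226 in wild-type, a log2 difference of -0.83 ± 0.17 (SE). Rbm25 had 4 tested probe sets, and 1425523_at read 305, 326, 247 and 308 in apoE-/- against 477, 512, 399, 446 and 448 in wild-type, at -0.67 ± 0.13 (SE). It was called present on 1 of 4 apoE-/- and 5 of 5 wild-type arrays. A second, 1437862_at, read -0.75 without passing though its groups did not overlap, while the 2 brightest read 0.01 and 0.18.

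Rbm5 ranged from -0.76 to 0.21 and Rbm6 from -0.16 to 0.12. Hnrnpu, an abundant nuclear protein that binds RNA and chromatin, lay between -0.0043 and 0.29 over 5 probe sets. The G3BP proteins act in the cytoplasm, where they seed stress granules. G3bp2 had 1 lower probe set, 1421323_a_at, at 1791, 1733, 1424 and 1304 in apoE-/- replicates 1 to 4 and 4528, 3811, 2899, 4074 and 3447 in wild-type replicates 1 to 5. The highest apoE-/- array was well below the lowest wild-type array, and the difference was -1.24 ± 0.13 (SE), 2.37-fold lower in apoE-/-. The other 2 probe sets of G3bp2 read 0.0023 and 0.02, and the first of these, 1423758_at, was brighter over all 9 arrays. On wild-type arrays alone the mean log2 signal was 11.85 for 1421323_a_at and 11.78 for 1423758_at. G3bp1 read -0.02 and 0.11.

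**Figure D2:**
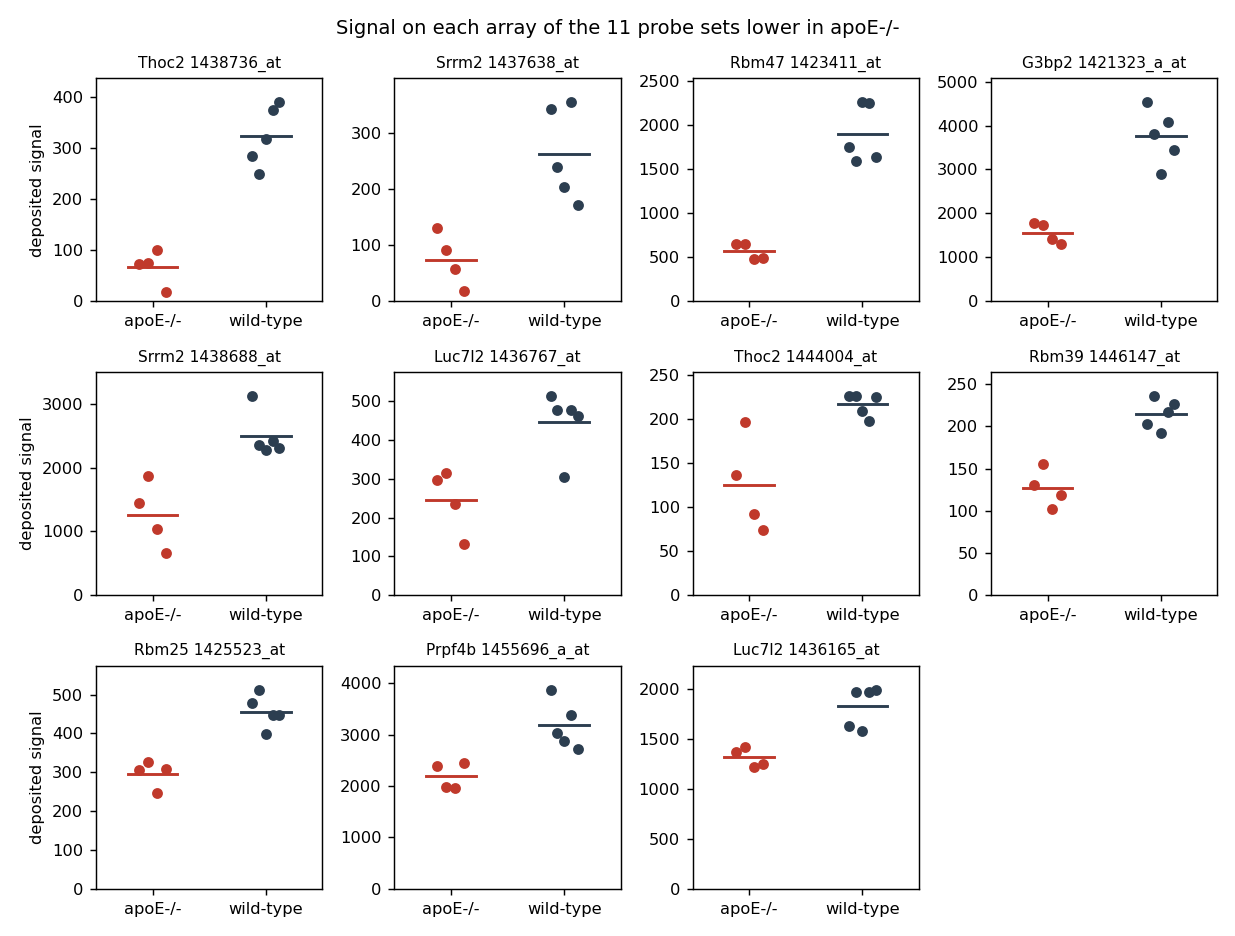
Deposited signal (y axis, from 0) on each array for the 11 probe sets past the threshold, with 4 apoE-/- arrays on the left and 5 wild-type arrays on the right of each panel; horizontal lines are group means. Rbm47 and G3bp2 show wide gaps between groups, while in Luc7l2 1436767_at a wild-type array at 304 lies under an apoE-/- array at 316.

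Array by array, the 11 lower probe sets did not fall evenly. Taken as the median deviation of each array from the 9-array mean on the log2 scale, they stood at -0.29, -0.28, -0.78 and -1.12 in apoE-/- replicates 1 to 4, against 0.64, 0.54, 0.22, 0.43 and 0.46 in wild-type replicates 1 to 5. Replicate 4 of apoE-/- was the lowest of all 9 arrays for 6 of the 11 probe sets and replicate 3 for the other 5. Over all 123 tested member probe sets the same medians were much smaller, from -0.10 to 0.01 in apoE-/- and from -0.03 to 0.13 in wild-type.

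Of the 11 calls, those of 1423411_at of Rbm47, 1421323_a_at of G3bp2 and 1438736_at of Thoc2 were made whichever array was left out, and the other 8 were not. The Thoc2 probe set was in the test through its wild-type present calls alone, so nothing is read from its call being kept. The number of lower member probe sets was 3 without apoE-/- replicate 3, 4 without wild-type replicate 4 and 7 without wild-type replicate 2. Without those same arrays the share of all tested probe sets called lower was 0.964%, 0.987% and 1.29%. Leaving out any of the other 6 arrays gave 8 to 12.

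Signs of RNA quality were read from control probe sets at both ends of GAPDH and beta-actin, which do not depend on how the members were chosen. The log2 ratio of 3′ to 5′ signal for beta-actin averaged 1.59 ± 0.15 (SD, 4 arrays) in apoE-/- samples and 1.56 ± 0.26 (SD, 5 arrays) in wild-type samples (exact permutation test, two-sided, p = 0.865). For GAPDH the mean was 0.08 ± 0.04 (SD, 4 arrays) in apoE-/- samples and 0.14 ± 0.24 (SD, 5 arrays) in wild-type samples (exact permutation test, two-sided, p = 0.635). Neither difference exceeded the spread between arrays. With the middle control probe sets in place of the 5′ ones, the beta-actin difference, apoE-/- minus wild-type, was 0.145 (exact permutation test, p = 0.183). The SD there was 0.151 in apoE-/- and 0.133 in wild-type samples. The highest array was apoE-/- replicate 4 at 1.34, and the lowest of the apoE-/- group was replicate 3 at 1.01. Of the 11 lower member probe sets, 6 had their lowest signal in replicate 4 and 5 in replicate 3. The GAPDH difference was -0.063 (exact permutation test, p = 0.484). Any part of RNA quality in the lower probe sets was not tested.

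Markers of other cell types moved with genotype only in part. Of 6 tested macrophage markers 2 passed, both higher in apoE-/-, with a summed signal of 7267 to 11496 in apoE-/- and 5666 to 9187 in wild-type. Of 8 fibroblast and mural cell markers 1 passed, also higher, at 18594 to 24716 in apoE-/- and 18338 to 20262 in wild-type. Neuron markers (8 tested) summed to 1135 to 1502 in apoE-/- and 1220 to 2125 in wild-type, and the 2 tested myelin markers to 1955 to 3634 in apoE-/- and 2081 to 8388 in wild-type, with wild-type replicate 1 the highest array for both lists. No marker of ependyma (4 tested, median log2 difference 0.34), endothelium (6 tested, 0.14) or astrocytes (5 tested, 0.19) passed by limma. The median was 0.58 for macrophage, 0.08 for fibroblast and mural cell, -0.23 for neuron and -0.41 for myelin markers. At an unadjusted p under 0.05, 4 of the 6 macrophage markers were higher and 0 lower. Also at that level 2 ependymal markers were higher, 1 endothelial marker was higher and 1 lower, and 0 astrocyte markers differed. For fibroblasts and mural cells 1 marker was higher and 1 lower, 1 neuron marker was lower, and 0 myelin markers differed. Over all tested probe sets 9.3% were lower and 7.23% higher at that level. The part of these cells in the lower member probe sets was not tested.

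Agreement between probe sets of one gene was read as the highest minus the lowest log2 difference. For the 30 members with at least 2 tested probe sets the median of this spread was 0.41, against 0.26 for 4510 other such genes. Members, however, had a median of 4 tested probe sets and other genes 2, and more probe sets give a wider spread. With 4 or more tested probe sets the medians were 0.49 for 16 members and 0.50 for 640 other genes, and with 2 or 3 they were 0.27 for 14 members and 0.23 for 3870 others.

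A spread above 1 on the log2 scale was found in 6 members, Srrm2 (at least 2.23), Thoc2 (at least 2.21), Rbm47 (1.55), Rbm39 (1.33), G3bp2 (1.27) and Luc7l2 (1.06). The values of Srrm2 and Thoc2 are bounds with no order between them, since each rests on a probe set with no present call in apoE-/-. The 6 are 20% of the members and 4.10% of the other genes. Among genes with 4 or more tested probe sets the shares were 12.5% and 10%, and with 2 or 3 they were 28.6% and 3.13%. The members were chosen with values of this contrast known, so these shares are a description. Thoc2 is counted only through a probe set that was tested by its wild-type present calls alone. The narrowest spreads, those under 0.2, were in Ddx17 (0.02), Pnn (0.03), G3bp1 (0.13), Srsf11 (0.13), Luc7l3 (0.18), Srsf6 (0.18) and Srsf2 (0.18).

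Signal level was also set against the difference, in bins of mean normalized log2 signal. Up to 8, 4 of 16 member probe sets were lower (25%) and 1.87% of all tested. Between 8 and 10 it was 2 of 44 members (4.55%) and 2.15% of all, between 10 and 12 it was 5 of 48 (10.4%) and 1.81% of all, and above 12 it was 0 of 15 members and 1.25% of all. The dimmest bin had a member median of -0.54, against -0.02 for all tested probe sets at that level. The bins use the mean over both groups, so low apoE-/- values move a probe set towards the dimmest bin. Thoc2 1438736_at and Srrm2 1437638_at lay in that bin, though their wild-type means were 8.33 and 8.01. Both were tested through their wild-type present calls alone. The share and median of the dimmest bin are therefore tilted towards lower values, and nothing is read from them about signal level. Brightness depends on the probes as well as on the RNA, so it does not rank transcripts by amount.

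**Figure D3:**
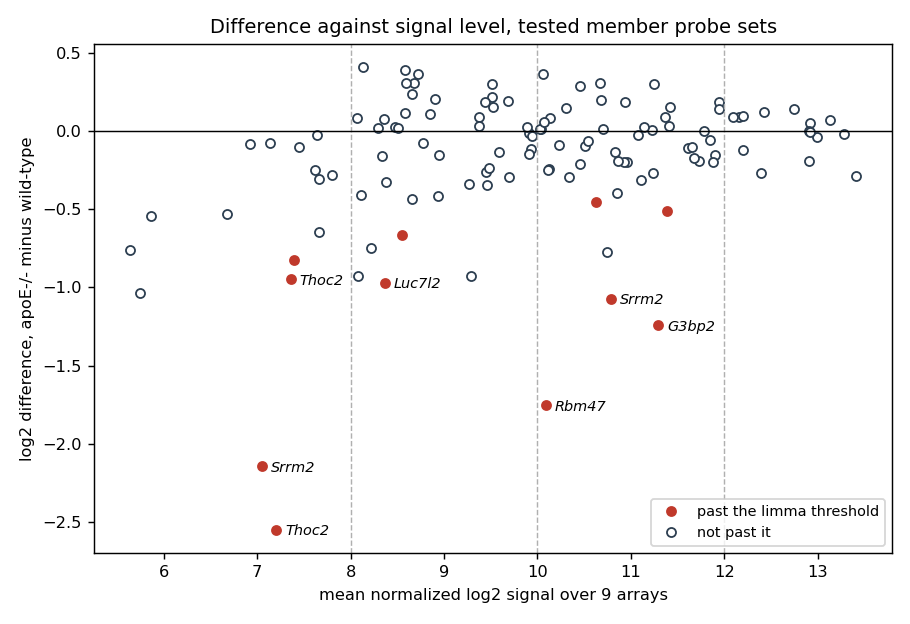
Log2 difference (apoE-/- minus wild-type, y axis) against mean normalized log2 signal over the 9 arrays (x axis) for the 123 tested member probe sets, with filled points past the limma threshold and dashed lines at the bin edges 8, 10 and 12. Filled points occur from the dimmest bin up to 12, and the 15 probe sets to the right of 12 are all open.

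By name suffix, 9 of the 72 member probe sets with a plain name were lower and 2 of 32 with the a suffix, which marks probe sets made to read several transcripts of the same gene. With the s or x suffix, where probes may also match other genes, 0 of 10 and 0 of 9 members were lower. Over all tested probe sets the 4 kinds had similar shares lower, from 1.69% to 1.96%.

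The RefSeq start windows of GRCm38.p6, from 250 bases before to 50 after each annotated start, were matched by symbol for 31 of the 34 members, 44 windows in all. Several windows were listed for 4 of the 8 genes with a lower probe set (Srrm2, Rbm39, Rbm47 and G3bp2) and for 4 of the other members. The first listed window is printed for Thoc2 (chrX:41911852-41912151, minus strand), Srrm2 (chr17:23802937-23803236, plus strand), Rbm47 (chr5:66151905-66152204, minus strand) and G3bp2 (chr5:92137676-92137975, minus strand), because these 4 genes had the largest differences. The letters run 5′ to 3′ along the gene's strand, and capitals mark any match to the motifs named after them.
Thoc2: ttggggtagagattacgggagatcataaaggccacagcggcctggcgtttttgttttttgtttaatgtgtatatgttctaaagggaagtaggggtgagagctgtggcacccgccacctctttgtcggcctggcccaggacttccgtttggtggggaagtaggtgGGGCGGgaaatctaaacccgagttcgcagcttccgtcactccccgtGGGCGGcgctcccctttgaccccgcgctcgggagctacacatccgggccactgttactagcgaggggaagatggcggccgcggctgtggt
Srrm2: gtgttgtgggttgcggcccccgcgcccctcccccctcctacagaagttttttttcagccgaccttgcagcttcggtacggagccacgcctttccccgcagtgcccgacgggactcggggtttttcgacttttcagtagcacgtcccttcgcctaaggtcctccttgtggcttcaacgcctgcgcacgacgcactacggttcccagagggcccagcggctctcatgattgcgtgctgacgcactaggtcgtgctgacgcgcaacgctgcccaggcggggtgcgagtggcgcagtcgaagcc
Rbm47: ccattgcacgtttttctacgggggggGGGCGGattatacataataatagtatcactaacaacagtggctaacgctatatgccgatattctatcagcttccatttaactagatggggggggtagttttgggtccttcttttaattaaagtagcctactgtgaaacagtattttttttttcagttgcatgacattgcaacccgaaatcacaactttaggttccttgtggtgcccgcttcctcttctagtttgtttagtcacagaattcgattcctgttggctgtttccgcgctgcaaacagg
G3bp2: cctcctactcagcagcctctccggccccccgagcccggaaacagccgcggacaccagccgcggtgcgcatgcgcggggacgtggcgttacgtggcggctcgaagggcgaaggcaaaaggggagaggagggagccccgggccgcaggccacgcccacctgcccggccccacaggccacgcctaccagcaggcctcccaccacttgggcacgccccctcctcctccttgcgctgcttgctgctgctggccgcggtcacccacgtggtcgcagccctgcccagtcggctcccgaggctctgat
The windows of Srrm2 and G3bp2 hold 30 and 29 CG pairs and none of the motifs. That of Thoc2 holds 21 CG pairs and 2 GC boxes, and that of Rbm47 holds 10 CG pairs and 1 GC box. The median was 26 CG pairs over the member windows and 7 over 32807 windows of other genes.

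Motifs were searched on both strands as GGGCGG (GC box), CCGGAAG (core of ETS factor sites), TGACGT (part of a cyclic AMP response element), CCAAT and TATAAA. Their letters do not contain one another. The GC box was found in 52.3% of the member windows and 35.6% of the others, CCGGAAG in 22.7% and 8.84%, TGACGT in 18.2% and 7.50%, CCAAT in 34.1% and 37.4%, and TATAAA in 13.6% and 13.6%. In the 14 windows of the 8 genes with a lower probe set, CCGGAAG occurred in 1, TGACGT in 0 and the GC box in 5. These matches describe letters in the windows only, and which start a probe set reads is not known from the files.

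The rest of the machinery was read through 9 lists of 166 genes outside the members, of which 143 had a tested probe set. These lists were also chosen with earlier results of these data known, so their shares are a description and support nothing about the members. The probe sets past the threshold were all lower in apoE-/-. They were 16 of 340 tested, from 13 genes, or 4.71% beside 1.92% of all tested probe sets, with 0 higher (limma, Benjamini-Hochberg adjusted p under 0.05). At an unadjusted p under 0.05, 48 were lower and 19 higher, or 14.1% and 5.59%, against 9.3% and 7.23% of all tested probe sets. The median log2 difference over the lists was -0.02, against 0.0014 over all tested probe sets. The count was 10 without apoE-/- replicate 3, 9 without wild-type replicate 2 and 8 without wild-type replicate 4.

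Of 70 core spliceosome probe sets 1 was lower, 1418562_at of Sf3b1, a subunit of the particle that recognises the branch point. Its signal was 755, 991, 677 and 522 in apoE-/- and 1447, 1639, 1544, 1802 and 1524 in wild-type, without overlap, and it was 2.21-fold lower (limma, adjusted p = 0.00156). Its brightest probe set read 0.14. The list's median was 0.03.

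Other SR-related and speckle genes had 3 of 64 lower and a median of -0.10. The splicing regulator Srek1 had 223, 275, 264 and 287 in apoE-/- by 1427136_s_at, against 485, 424, 538, 503 and 385 in wild-type, and was called present on 1 of 4 and 5 of 5 arrays (limma, adjusted p = 0.00501). The paired speckle proteins Thrap3 and Bclaf1 were 1.83-fold and 1.46-fold lower by 1 probe set each (limma, adjusted p = 0.0206 and 0.0355). Among SR protein kinases, Srpk2 was 1.75-fold lower by 1417135_at, 1 of 11 probe sets of that list (limma, adjusted p = 0.0163), while its other tested probe sets read from 0.05 to 0.29.

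Other export genes had 1 of 39 lower, 1429410_at of Eny2, a subunit shared by chromatin and export complexes (limma, 1.61-fold, adjusted p = 0.0422). Of 57 hnRNP and PTB probe sets 2 were lower. Hnrnpab read 846, 757, 813 and 901 in apoE-/- by 1426114_at and 2459, 1766, 1712, 1866 and 1274 in wild-type, 2.14-fold lower (limma, adjusted p = 0.00232), and Hnrnpr was 1.94-fold lower by 1438807_at (limma, adjusted p = 0.0292). The brightest probe sets of these genes read 0.01 for Eny2, -0.01 for Hnrnpab and 0.26 for Hnrnpr.

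Rbm14, a paraspeckle protein and coactivator, was lower by 3 of its 4 tested probe sets, at -0.67, -0.81 and -0.71 (limma, adjusted p = 0.0048, 0.0126 and 0.0447). All 3 carry the x suffix, and the fourth, without it, read -0.09. No other gene of the 37 RBM probe sets passed. Of 19 helicase probe sets 2 were lower, 1 of Ddx3x (1.43-fold, limma, adjusted p = 0.00789) and 1 of Ddx6 (1.98-fold, limma, adjusted p = 0.0201). None of the 7 exon junction complex probe sets passed by limma. At an unadjusted p under 0.05, 1 was lower and 1 higher, or 14.3% each, against 9.3% and 7.23% of all tested probe sets.

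Stress granule partners of G3BP had 3 of 36 lower. The ataxin gene Atxn2 was lower by 2 probe sets, of which the brightest of the gene, 1438143_s_at, read 1342, 1248, 1014 and 1202 in apoE-/- and 2130, 1907, 2196, 2106 and 1674 in wild-type (limma, 1.65-fold, adjusted p = 0.00485). Ubap2l was 1.47-fold lower by 1 of its probe sets (limma, adjusted p = 0.0452) and read 0.18 by its brightest.

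**Figure D4:**
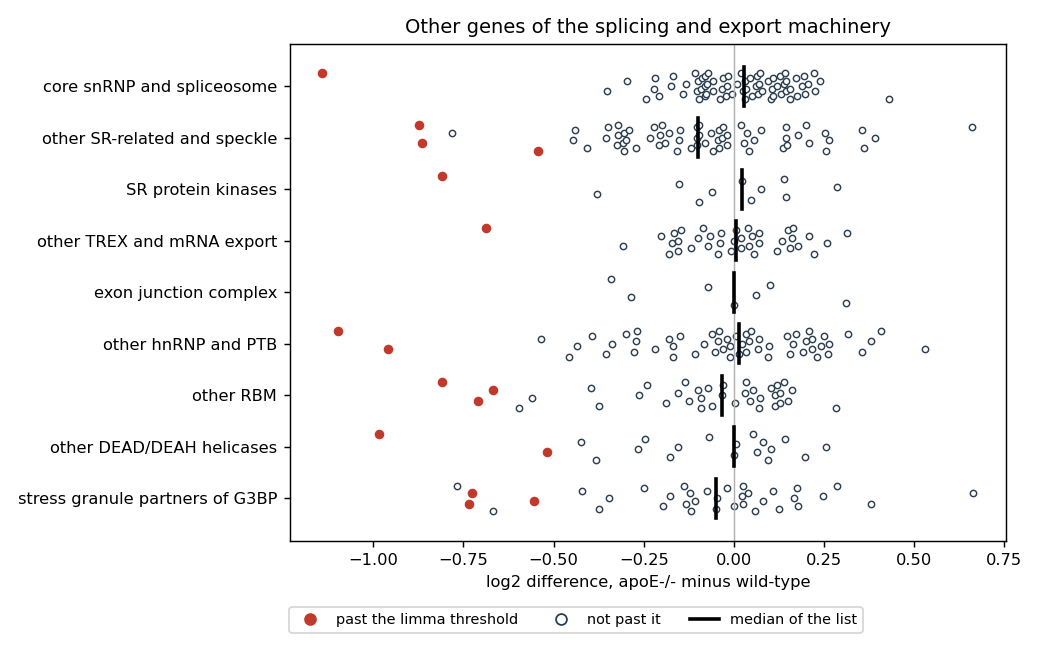
Log2 difference (apoE-/- minus wild-type, x axis) of each tested probe set in the 9 lists of other splicing, export and stress granule genes, with black bars at list medians and filled points past the limma threshold; vertical scatter within a row has no meaning. The 16 filled points are all left of 0, while list medians lie between -0.10 and 0.03.

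With 1 probe set per gene, the brightest, and p-values adjusted over these 11089 genes, 2 of 33 members were lower, Srrm2 and Prpf4b, and 2 of 143 genes of the lists. Over all genes 0.604% were lower and 0.577% higher by that reading. The brightest probe sets of the members had differences from -1.07 to 0.19, and 29 of the 33 lay within 0.3 of 0.

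A pair of nuclear RNAs named with the speckle genes were read for comparison. Malat1, an RNA of nuclear speckles, was lower by 3 of 5 tested probe sets, most by 1438403_s_at, with 597, 341, 221 and 389 in apoE-/- and 4966, 2070, 2831, 2379 and 1057 in wild-type (limma, adjusted p = 0.00137). Neat1, the RNA of paraspeckles, read -0.36 and 0.17 and did not pass.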

How the data were processed

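Total RNA of 9 samples was labelled by in vitro transcription and hybridised, per the labels' protocols. The deposited table gives a linear signal intensity and a detection call per probe set and array, made with GCOS 1.4 per the submitters' processing notes; no source used here gives its background and summary steps. The deposited values were already scaled, since each array's mean after trimming 2% at each end was 500.0. The 9 columns of detection p were left unused.

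Intensities were taken to log2 and quantile normalized, because array medians ranged over 0.214. Probe sets called present on at least 4 of 9 arrays, without 64 controls, were tested with limma (version 3.58.1, R 4.3.3; mean-variance trend, genotype only, two-sided, Benjamini-Hochberg adjusted p under 0.05 over all 21478). The step was tested on simulated arrays. Signals printed are deposited values, while differences, overlap and folds use normalized log2 values. A fold is a bound if a group had no present call: the wild-type mean is set against the dim group's mean, with each array's value raised, where below it, to that array's lowest present signal. Probe sets were named by platform annotation, 34958 with 1 symbol.

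The members and lists were chosen with earlier results of these data known. Values in every array are given for the 14 members with the smallest p and those past the threshold, and up to 3 genes of each list by p are named. Alternatives were other scalings, filters, an offset, no trend, array weights, a replicate block, the brightest probe set per gene and each array left out.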

Additional observations from a re-analysis of the deposited data

Results flagged for a closer look

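Of 34 groups examined (17 named member probe sets in 2 genotypes), 5 held 1 array far from the others on the log2 scale, judged by its gap to the nearest array as a share of the group's range. For independent groups not picked by their values chance gives about 1 in 20, but these probe sets were picked by small p and share their arrays, so that rate is only a guide. Rbm25 1425523_at was low in apoE-/- replicate 3 at a signal of 247 (share 0.931). In the wild-type group, Srrm2 1438688_at was high in replicate 1 at 3119 (share 0.860), and Srsf10 1449121_at was low in the same array at 1594 (share 0.720). Replicate 3 of wild-type was low for Luc7l2 1436767_at at 304 (share 0.779). It was also low for Ddx17 1437773_x_at (share 0.739) on the normalized scale only, since in deposited signals its 11153 lay above the 10892 of wild-type replicate 5.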

How the results depend on the processing

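Rbm47 1423411_at and G3bp2 1421323_a_at stayed lower and past the threshold under all 17 alternatives run for them. The filter to probe sets present on all 9 arrays removes Thoc2 1438736_at, Srrm2 1437638_at and Rbm25 1425523_at. Thoc2 1438736_at passed in its other 16 alternatives. Where detection calls were filtered, its wild-type present calls alone kept it in the test. With no filter on detection calls it passed too (limma, adjusted p = 0.016). None of the 17 named member probe sets changed direction in an alternative. The call was lost most often for Thoc2 1444004_at, in 13 of 17 alternatives, for Luc7l2 1436165_at in 9 and for Luc7l2 1436767_at in 8. The 11 lower member probe sets were 4 with no filter on detection calls, 5 without the mean-variance trend, 17 with array weights (all 11 among them) and 2 with the brightest probe set of each gene, and 3 to 12 with 1 array left out. The 16 of the other lists were 7, 8 and 2 with no filter, without the trend and with the brightest probe set, and 8 to 20 with 1 array left out, with 0 to 1 higher. Over all tested probe sets, 81 were higher and 248 lower with no filter, 57 and 252 without the trend, and 372 and 706 with array weights, against 144 and 412, and 56 to 240 higher and 207 to 529 lower with 1 array left out. The list count of higher probe sets was 1 with array weights. Fewer arrays or another number of tested probe sets change these counts by construction. The number of tested members was 146 with no filter. It stayed 123 without the trend and with array weights, so this does not cover those 2 settings. No other cause was tested. The median spread between probe sets of a member was 0.34 among probe sets present on all 9 arrays, 0.59 with no filter, and 0.34 to 0.55 with 1 array left out. The median difference between pairs of probe sets, a measure chosen after seeing the data, was 0.24 for members and 0.22 for other genes. The 3′ to 5′ differences changed sign within their spread when 1 array was left out, from -0.148 to 0.0045 for GAPDH and from -0.0678 to 0.102 for beta-actin, with p from 0.143 to 1 by the exact permutation test. Replicate numbers are shared by the genotypes and were not treated as pairs in the main test. Same-numbered arrays deviated together with correlations of 0.16, -0.01, 0.03 and 0.01. Of the 4 apoE-/- arrays, 2 correlated best with their own number. These are too few arrays to decide whether the numbers mark pairs. With the replicate block, which leaves out wild-type replicate 5, 10 member probe sets were lower, 8 of them among the 11. Of the lists 13 probe sets were lower and 1 higher, and the median spread was 0.55. Over all tested probe sets 421 were lower, or 1.96%, and 180 higher in that setting.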

Other observations

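In genes with at least 2 tested probe sets across the whole array, 4540 of 11825 probe sets, or 38.4%, are by definition the brightest of their gene. Of these 11825 probe sets, 310 were lower in apoE-/-, and 56 of them, or 18.1%, were the brightest of their gene. Of the 62 higher probe sets in such genes 25, or 40.3%, were the brightest. The shares were 2 of 11 for the lower splicing, speckle and export members and 2 of 16 for the other machinery lists. No difference between these shares was tested.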
